A study of Danio rerio with 2 samples.

Results

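The sites described here are 885 single base substitutions in zebrafish protein-coding genes, each predicted to replace 1 amino acid by another and each covered by at least 5 reads. They were taken from a deposited variant table of 7447 sites as 1 site per chromosome and position with at least 1 nonsynonymous effect and no predicted stop, start loss, frameshift or splice site effect. They lay in 643 genes, on all 25 chromosomes of the Zv9 build and on unplaced scaffolds. A further 1510 amino acid changing sites had fewer than 5 reads, and 1445 synonymous sites with at least 5 reads served as a reference set.

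RNA was sequenced from whole zebrafish embryos collected 32 hours after fertilisation, in 1 library of supt16h-/- mutants and 1 library of wild-type siblings, both grown at 28 °C. The study used single nucleotide variants in these reads to map a mutation by linkage. The labels do not say how many embryos went into a library, nor whether the wild-type siblings were genotyped. With 1 library a group there was no replicate, no test between the groups was run here, and the depth of the libraries is unknown. All 8 markers of embryonic cell types that were looked up were above 0 in both libraries, among them krt4 of the epidermis at 12119 FPKM in the mutant library and 8587 FPKM in the sibling library, actc1b of muscle at 5698 and 3441 FPKM, and elavl3 of neurons at 83.4 and 205 FPKM. FPKM is a level scaled to transcript length and to the size of the library. The gene supt16h stood at 2.98 FPKM in the mutant library and 44.4 FPKM in the sibling library.

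A codon of 3 bases encodes 1 amino acid. A nonsynonymous substitution changes the residue, and a synonymous one swaps between codons of the same residue. In mapping by linkage, embryos are picked for a recessive phenotype, so variants close to the causal mutation tend to be inherited with it, while distant ones segregate. SnpEff, the annotation program, predicts the effect of each variant from gene models and says nothing of whether the protein works differently. The table listed every site as homozygous, at 100% of the 885 sites and of both other sets, so this column separated no sites. The table did not state in which library the variants were called.

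Of the 18 sites within 10 Mb of supt16h, 17 are shown first with their codons, since these sites lie closest to the mapped gene. FACT is a histone chaperone that loosens and rebuilds nucleosomes, and supt16h, the gene of 1 of its subunits, lies at chr7:1689456-1757060 (Zv9). It held 0 of the amino acid changing sites with at least 5 reads and 5 of the synonymous ones. The genes of its partner subunit, ssrp1a and ssrp1b, held none of either kind. Sites with fewer reads, or with a predicted stop, start loss, frameshift or splice site effect, were not counted for these genes. For each site the reference codon stands before the slash and the variant codon after it, on the coding strand and 5′ to 3′, with the changed base in capitals. In a residue change such as M292V, the reference residue comes first, then its number in the longest annotated gene model, then the new residue.

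C7H11orf68 P7A: Ccg/Gcg
NYNRIN Q480R: cAa/cGa
lpcat4 M292V: Atg/Gtg
lpcat4 I337V: Att/Gtt
lpcat4 I456L: Ata/Tta
CABZ01007794.1 S700T: aGc/aCc
CABZ01007794.1 T539A: Aca/Gca
CABZ01007794.1 S478L: tCg/tTg
CABZ01007794.1 S102T: Tcc/Acc
APOLD1 (2 of 4) T260I: aCa/aTa
APOLD1 (2 of 4) S54L: tCa/tTa
nit1 N286D: Aac/Gac
clcn3 T746A: Acg/Gcg
INO80B G17R: Ggg/Agg
TRMT10B E237K: Gag/Aag
TRMT10B Q4P: cAg/cCg
zfand6 G88S: Ggt/Agt

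The nearest gene with amino acid changing sites was lpcat4, an acyltransferase of phospholipid remodelling, whose 3 sites lay 19.3, 18.0 and 13.4 kb before the start of supt16h. They lie at positions 1670202, 1671458 and 1676033 of chromosome 7 and had 12, 16 and 31 reads. All 3 exchanged 1 large hydrophobic residue for another. The gene lpcat4 was listed at 6.26 FPKM in the mutant library and 4.98 FPKM in the sibling library. On the other side, the nearest was CABZ01007794.1, a gene with no symbol in the table, 886 to 897 kb past the end of supt16h. Its 4 sites had 314, 18, 153 and 32 reads, the most of any gene in this stretch. Of the other sites within 1 Mb, P7A of C7H11orf68 (13 reads) and Q480R of NYNRIN (12 reads) lay before supt16h, while T260I and S54L of APOLD1 (2 of 4) lay past it with 7 reads each.

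The remaining 7 sites of the stretch lay 6578 to 9694 kb past supt16h. They included G17R of INO80B, a subunit of the INO80 nucleosome remodelling complex in humans, at position 8534112 with 59 reads. Here a glycine gave way to a positively charged arginine. The gene was listed at 18.2 FPKM in the mutant library and 18.4 FPKM in the sibling library. The others were N286D of nit1, a nitrilase family enzyme (12 reads), T746A of clcn3, a chloride transporter of endosomes (19 reads), D219N of AADAT, an aminotransferase of lysine and kynurenine breakdown (31 reads), E237K and Q4P of TRMT10B, a tRNA methyltransferase (16 and 9 reads), and G88S of zfand6, a zinc finger protein (90 reads).

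Amino acid changing sites were a smaller part of the sites within 10 Mb of supt16h than over the genome. The intervals for this stretch and for the rest of chromosome 7 overlapped. Within 10 Mb, the 18 sites in 11 genes stood beside 59 synonymous sites in 32 genes, so that 23.4% of both kinds changed an amino acid (exact 95% interval 14.5 to 34.4). On the rest of chromosome 7 there were 39 and 83, which gives 32.0% (23.8 to 41.0). Over all chromosomes and unplaced scaffolds together the share was 38.0% (36 to 40). Within 1 Mb of supt16h there were 11 and 22, or 33.3% (18 to 51.8), an interval that includes the 38.0%. The 18 sites within 10 Mb were well read. Their median coverage was 17 reads, against 10 reads on the rest of the chromosome, and 13 of the 18 had a quality score of at least 222, the most frequent value, against 15 of 39. Exact (Clopper-Pearson) intervals here and below cover counting error only, and sites of 1 gene share reads and ancestry, so they are not independent.

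**Figure D1:**
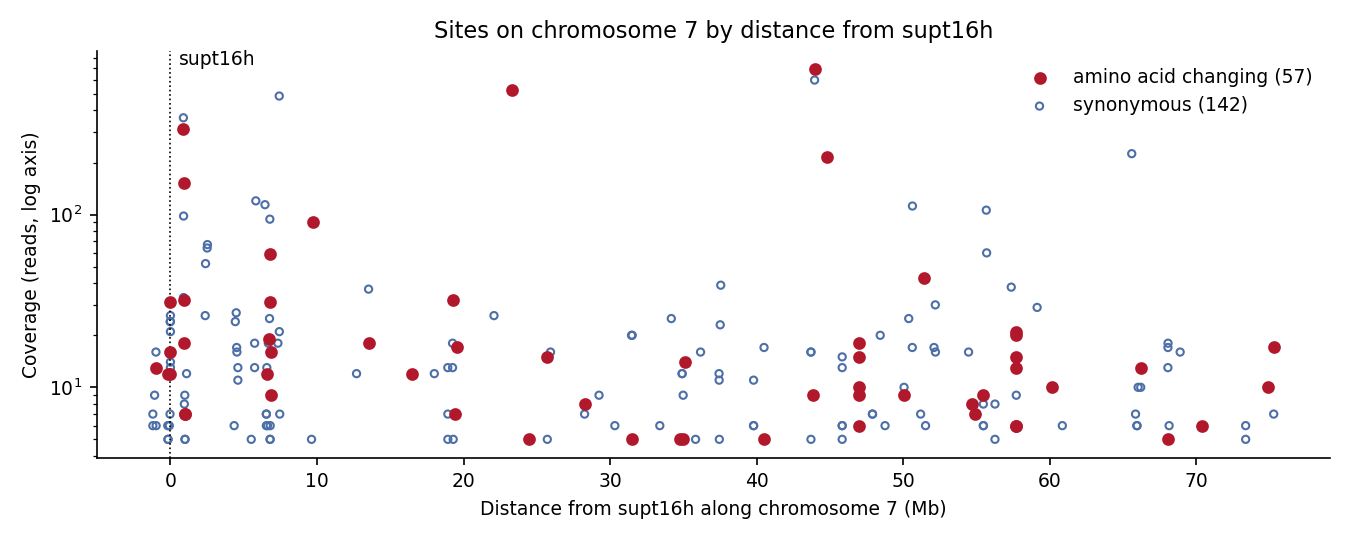
Coverage in reads (log axis) of the 57 amino acid changing and 142 synonymous sites of chromosome 7, each point 1 site, against the distance from supt16h in Mb. The 3 lpcat4 sites lie next to supt16h, groups of sites stand near 1 and 7 Mb, and the most covered site lies farther along the chromosome.

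The windows near supt16h held many sites but not the most of the genome. In windows of 1 Mb, the window from 1 to 2 Mb of chromosome 7, which holds supt16h, had 4 amino acid changing and 12 synonymous sites. The windows from 2 to 3 Mb and from 8 to 9 Mb had 6 and 9, and 6 and 13. By both kinds of site together they ranked 11, 15 and 8 of 693 windows with a site of either kind. By amino acid changing sites alone they ranked 33, 12 and 12, where ties share the best rank. Counts were not scaled to the genes or reads of a window. Of 408 windows with an amino acid changing site, 32 held at least 5 and together took 216 of the sites. The fullest was the window from 5 to 6 Mb of chromosome 12, with 16 amino acid changing sites in 7 genes and 21 synonymous sites, followed by 60 to 61 Mb of chromosome 4 with 12 and 4, and 20 to 21 Mb of chromosome 24 with 11 and 11. The window on chromosome 12 includes copies of TRPM4, a cation channel gated by calcium.

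By chromosome, the count ran from 14 sites on chromosome 6 to 89 on chromosome 4. Chromosome 4 held 10.1% of the amino acid changing sites and 5.12% of the synonymous ones, while chromosome 7 held 6.44% and 9.83%, and chromosome 1 held 6.55% and 9.90%. On chromosome 4, 54.6% of both kinds changed an amino acid (46.6 to 62.4), against 28.6% on chromosome 7 (22.5 to 35.5) and 28.9% on chromosome 1 (22.7 to 35.6). Most sites of chromosome 4 lay in its distal part. Between 30 and 70 Mb there were 72 amino acid changing and 33 synonymous sites, and 60 of the 72 were in genes with clone-based names. From 0 to 30 Mb there were 17 and 41. As background, the long arm of zebrafish chromosome 4 is known for tandem arrays of zinc finger and innate immune receptor genes. Their part in these counts was not tested.

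**Figure D2:**
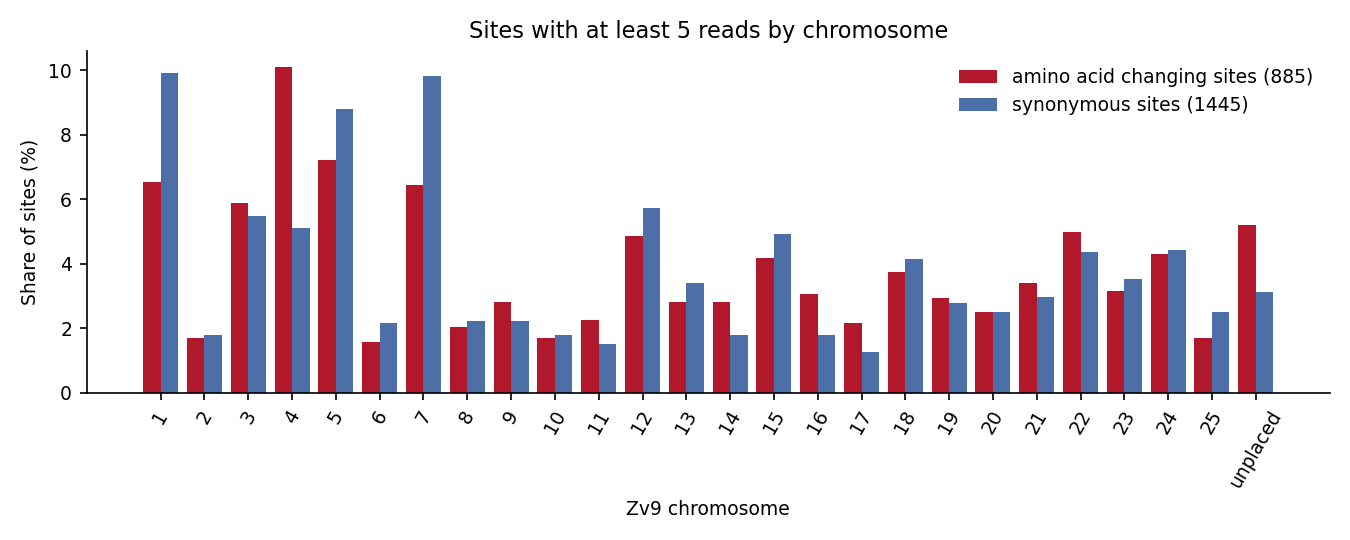
Share of the 885 amino acid changing sites and of the 1445 synonymous sites (percent) on each Zv9 chromosome and on unplaced scaffolds, as bars. Chromosome 4 stands out among the amino acid changing sites at 10.1%, against 5.12% of synonymous sites.

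Coverage was the number of reads at the site and is the depth behind each call. The 885 sites had 5 to 693 reads, with a median of 8 and quartiles of 6 and 14, against 5 to 955 reads and a median of 9 for synonymous sites. Of the 885, 357 had at least 10 reads, 112 at least 20 and 15 at least 100. At the limit itself, 187 sites had exactly 5 reads with a median quality of 88.3, and just outside it 279 sites had 4 reads with a median quality of 69.5.

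The share of amino acid changing sites on chromosome 7 was larger at high coverage. It was 3.44% of sites with 2 to 4 reads, 3.98% with 5 to 9 reads, 8.98% with 10 to 19, 8.86% with 20 to 49 and 21.2% with 50 or more, the last from 7 of 33 sites (exact 95% interval 8.98 to 38.9). Synonymous sites gave 5.85%, 8.16%, 10.6%, 14.0% and 12.3% in the same classes. The 7 sites with at least 50 reads lay in 6 genes, namely wu:fb17g07, vbp1, CABZ01007794.1 with 2 sites, UQCRFS1 (2 of 2), zfand6 and INO80B, so 4 of them are among the 18 near supt16h. The interval of the highest class overlaps those of the classes with 10 to 49 reads.

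**Figure D3:**
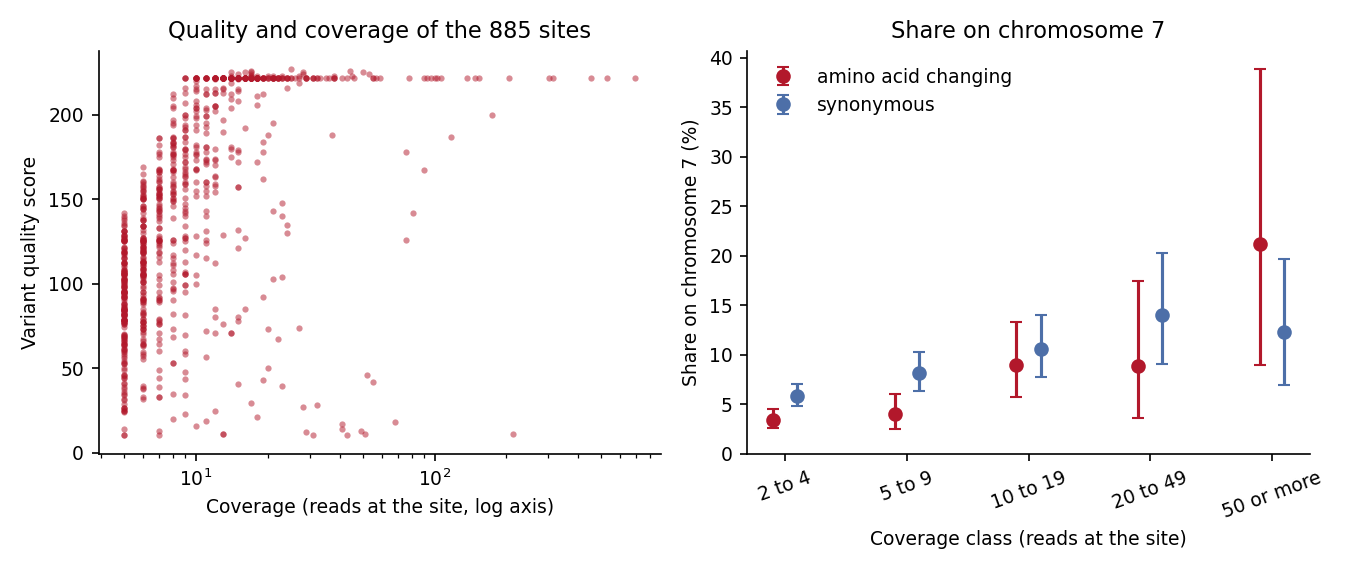
Left, quality score against coverage in reads (log axis) of the 885 sites, each point 1 site. Right, share of amino acid changing and of synonymous sites that lie on chromosome 7 (percent) by coverage class, with exact 95% intervals. Quality rises with coverage up to a ceiling near 222, a few deeply covered sites sit far below it, and the chromosome 7 share is lowest at 2 to 4 reads for both kinds of site.

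The 12 most covered sites lay in 11 genes listed at 12.2 to 1349 FPKM in the mutant library and 19.8 to 972 FPKM in the sibling library, where the median of the measured genes with amino acid changing sites was 5.19 and 4.69 FPKM. The codons of 9 of these sites follow, and both sites of CABZ01007794.1 are shown above.

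wu:fb17g07 P150L: cCg/cTg
vbp1 N81H: Aat/Cat
NID2 (1 of 2) L952Q: cTg/cAg
UQCRFS1 (2 of 2) L41F: ttG/ttC
PTGES3 (3 of 3) K47R: aAg/aGg
glrx S55N: aGc/aAc
mibp2 G175A: gGt/gCt
dido1 D2283E: gaC/gaA
mybpc2b A13E: gCa/gAa

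Proline 150 of wu:fb17g07 on chromosome 7 (position 45704465) gave way to leucine with 693 reads, and the gene was listed at 163 FPKM in the mutant library and 247 FPKM in the sibling library. The site N81H of vbp1, a subunit of the prefoldin chaperone, had 526 reads. The basement membrane protein nidogen NID2 (1 of 2) carried L952Q with 302 reads. The co-chaperone PTGES3 (3 of 3), the p23 partner of Hsp90 in mammals, carried K47R with 204 reads, the redox protein glutaredoxin glrx S55N with 174 and the myosin-binding protein mybpc2b of muscle A13E with 117. Both CABZ01007794.1 sites with 314 and 153 reads also belong to the 12 most covered.

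High coverage did not always come with a high quality score. Of the 112 sites with at least 20 reads, 76 had a quality of at least 222, but L41F of UQCRFS1 (2 of 2), the iron-sulfur subunit of respiratory complex III, had a quality of 11.3 at 214 reads. In all, 33 sites had a quality below 30, 11 of them with at least 20 reads.

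The substitutions themselves were split nearly evenly between kinds of base change. Transitions, which swap A with G or C with T, made up 49.3% of the 885 sites (45.9 to 52.6), against 74.6% of synonymous sites (72.3 to 76.8), and 48.6% (46.1 to 51.2) of amino acid changing sites with fewer than 5 reads. As background, in the genetic code most transitions at the third base of a codon are synonymous. The changed base was the first of the codon at 46.2% of the sites, the second at 40.3% and the third at 13.4%, against 4.84%, 0% and 95.2% of synonymous sites. The sets were sorted by whether the residue changes, so the genetic code largely fixes this contrast in advance. On the coding strand the most frequent changes were G-to-A (154 sites) and A-to-G (143 sites), and C-to-T (73) and T-to-C (66) were fewer. On the genome strand the 4 transitions had 124, 106, 103 and 103 sites.

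Exchanges between similar residues were the largest of the 3 score classes. BLOSUM62, a score of how often 2 residues replace each other in related proteins, was above 0 at 362 sites (40.9%), 0 at 199 and below 0 at 324 (36.6%, 33.4 to 39.9), against 40.8% below 0 (38.3 to 43.3) of the 1510 sites with fewer reads. Pairs that exchanged most were aspartate with glutamate (36 sites, 18 each way), glutamate with lysine (23 toward lysine, 13 away), alanine with threonine (19 toward threonine, 16 away), glycine with serine (16 each way) and isoleucine with valine (18 toward valine, 14 away). The reference residue was serine most often, lost at 95 sites and gained at 68. Lysine was gained at 65 sites and lost at 45, and alanine gained at 72 and lost at 54.

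Charge changed at 280 sites (31.6%), with 142 more positive and 138 more negative, and at 36 of them (4.07% of the 885) it was reversed. Of the 1510 sites with fewer reads, charge changed at 32.4% and was reversed at 3.51%. Lysine and arginine were counted as positive, aspartate and glutamate as negative, and histidine as uncharged. Proline, which bends the chain, was gained at 33 sites and lost at 36. Cysteine was gained at 16 and lost at 13, glycine gained at 46 and lost at 59, and tryptophan, the rarest residue, gained at 5 and lost at 10. By residue class 371 sites (41.9%) stayed within their class, against 41.9% of the sites with fewer reads. The classes were hydrophobic, polar, charged, and glycine or proline, with histidine as polar. The sites were spread along the proteins, with a median relative position of 0.5, 81 in the first 10% of the chain and 112 in the last 10%.

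**Figure D4:**
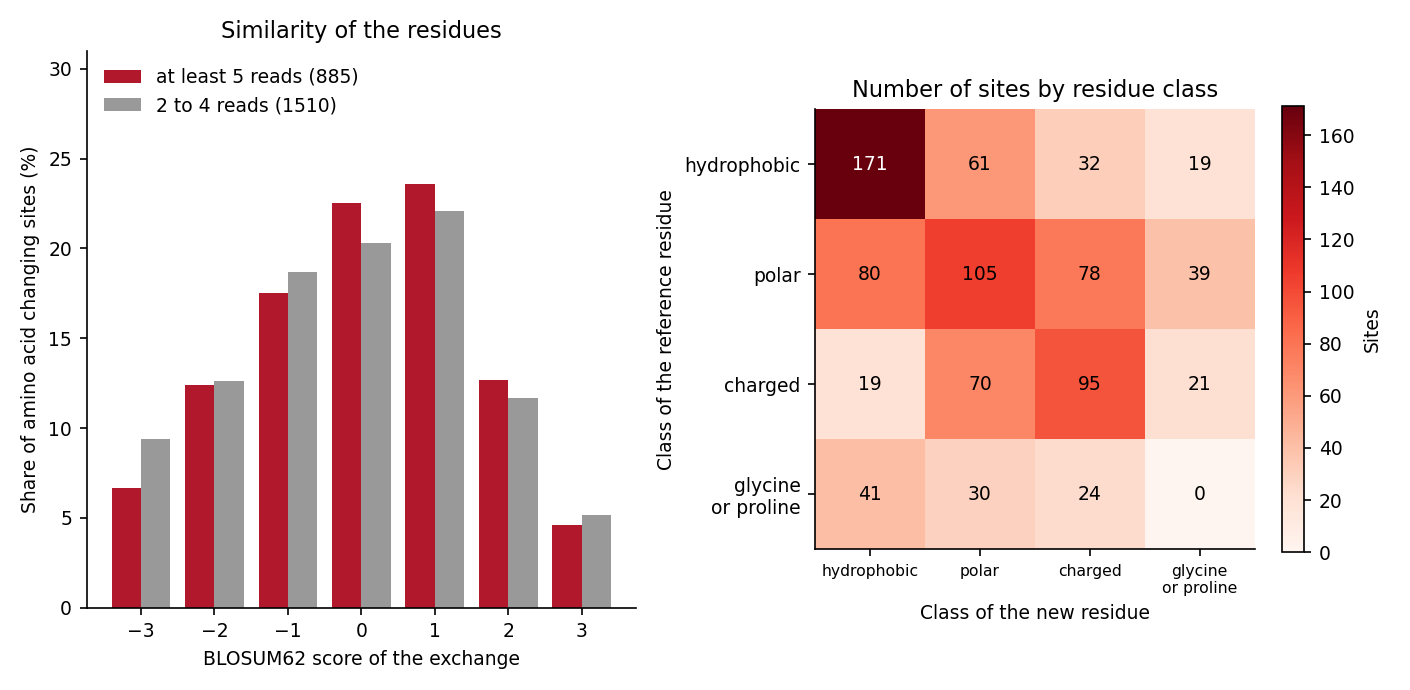
Left, share of amino acid changing sites (percent) by BLOSUM62 score for the 885 sites with at least 5 reads and the 1510 with 2 to 4. Right, number of the 885 sites by class of the reference residue (rows) and of the new residue (columns). Both sets peak at a score of 1, and the largest cell is hydrophobic to hydrophobic with 171 sites.

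The most unlike exchanges, with a score of -3, numbered 59. The most covered was wu:fb17g07 P150L, and 10 others of high coverage are shown here.

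APCDD1L P285L: cCt/cTt
CABZ01072244.1 P4L: cCg/cTg
AL935274.1 W210R: Tgg/Agg
PDCL3 L74H: cTc/cAc
CABZ01066897.1 G120V: gGt/gTt
zmiz2 V783G: gTa/gGa
noa1 N86I: aAc/aTc
CABZ01038493.1 W565R: Tgg/Agg
zgc:153116 C50R: Tgc/Cgc
CU570691.2 Y899D: Tat/Gat

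Of these 10, 3 lost a tryptophan or a cysteine to arginine. Each score is of the single base change alone. Codon 74 of PDCL3 also held a synonymous change, with the bases at 16 to 18 reads. Both changes together would read L74Q, with a score of -2. The genes that have a symbol included noa1, a GTPase of mitochondria, whose N86I had 15 reads, and zmiz2, a co-regulator of transcription, whose V783G also had 15 reads.

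Many sites shared a gene. Of the 643 genes, 488 held 1 site and 155 held 2 or more, which took 397 of the 885 sites. Of the genes, 215 also held a synonymous site with at least 5 reads. The gene with the most, SUSD2 on chromosome 5, held 8 within 11.1 kb with 7 to 18 reads, beside 6 synonymous ones. The periaxin gene prx, a protein of myelinating Schwann cells in mammals, held 7 with 14 to 100 reads. CR354540.2 on chromosome 7 and TRPM4 (2 of 3) on chromosome 12 held 6 each. The most covered of the 7 genes with 5 sites were CU682355.1 and si:ch211-116m6.3, both on chromosome 23. These 2 stood at the same levels, 13.6 FPKM in the mutant library and 17.6 FPKM in the sibling library, and both carried Q353K. Another, vcana, encodes the matrix proteoglycan versican and had 5 amino acid changing and 0 synonymous sites, as did ZNF507, a zinc finger gene on chromosome 7. At 129 sites another of the 885 lay in the same gene within 50 bases, the length of 1 read.

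By the first letters of their names, 107 of the 885 sites (12.1%, exact 95% interval 10 to 14.4) fell in 17 gene groups, against 21.2% of synonymous sites (19.1 to 23.4). With all names that the letters caught, before some were taken out by hand, the shares were 14.6% and 21.9%. Such lists miss genes whose names start otherwise, INO80B and uhrf1 among them, so a group's count is of its list and not of all genes with that role. The extracellular matrix group was the largest, with 21 sites in 12 genes beside 32 synonymous sites. Besides NID2 (1 of 2) and vcana it held K2232Q of frem2b (20 reads) and Y2791F of fras1 (18 reads), a pair of genes whose products anchor the epidermal basement membrane, and E1098D of the fibronectin gene fn1b (17 reads). The transporter and channel group held 13 sites beside 53 synonymous, 11 of them in trpm4 copies. The metabolic enzyme list held 13 beside 24, led by the mitochondrial isocitrate dehydrogenase IDH2. Next came aldh16a1, with S270T at 16 reads and S270F at 15. These aldh16a1 bases share a codon, and both changes together would read S270I.

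In the muscle list, 7 sites in 5 genes stood beside 43 synonymous sites in 13 genes. They included E398D, V594I and V864A of the myosin heavy chain myha, with 33, 24 and 15 reads and levels of 982 FPKM in the mutant library and 751 FPKM in the sibling library. The chromatin and transcription list held 8 sites beside 17. Here hdac8, a histone deacetylase, had Q1248L in the longest model and Q250L in a shorter one, with 43 reads, and baz1b, a subunit of chromatin remodelling complexes, had E1529K with 31 reads but a quality of 10.4. The histone demethylase gene KDM4C had E528K with 8 reads and M333L with 6. The replication and repair list held 6 sites beside 21, 4 of them in brca2, which loads the recombinase at broken DNA, namely A107T, E1040K, E1183D and A1257T with 14, 7, 13 and 8 reads.

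The other 11 groups held 1 to 6 sites each. They included A153P of the RNA helicase dhx16 (44 reads), L199V of the mitochondrial ribosomal protein gene mrps22 (41 reads), R323K of the desmosome gene dspa (35 reads), G10A of the lens crystallin crybb1l1 (90 reads), W102C and S255R of the translation initiation factor subunit eif3ba (9 reads each), T1563P of the complement gene c3c (23 reads), H186P of the filamin flncb (13 reads), T305K of rnf6 (11 reads) and V232A of DNAJC13 (2 of 2) (6 reads). Each of these is a single base substitution, with 2 of them in eif3ba, and no group was tested.

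At 38 codons an amino acid changing site shared its codon with another coding site, which involved 54 of the 885 sites. The other site needed no minimum of reads. At some of these codons, those of WDR1, sidt2 and mybpc3 among them, the less covered base had 2 reads. The table annotates each base alone, so a prediction can fail where both changes lie on the same molecule. Both bases were therefore read together from the deposited codons. Joint reading gave another residue than either single change at 24 codons, the same as 1 of the single changes at 14, and a stop or the reference residue at 0. The 4 codons below show these outcomes, first each change alone and then both together.

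FSCB (1 of 3) P136A and P136Q: Cca/Gca and cCa/cAa, together CCa/GAa, P136E
CR354540.2 A282T and A282E: Gca/Aca and gCa/gAa, together GCa/AAa, A282K
IDH2 R220T and R220S: aGg/aCg and agG/agT, together aGG/aCT, R220T
ppp1cbl V230M and V230V: Gtg/Atg and gtG/gtC, together GtG/AtC, V230I

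In FSCB (1 of 3) the 2 bases had between 93 and 102 reads and the joint residue was a charged glutamate. In CR354540.2 they had between 15 and 20 reads, and alanine to threonine or to glutamate became alanine to lysine. In IDH2 the bases are neighbours, at positions 25887970 and 25887971 of chromosome 18, yet had unequal coverage. There R220T had 38 reads and R220S 106. In ppp1cbl, a catalytic subunit gene of protein phosphatase 1, the bases had unequal coverage, from 7 to 17 reads. There the joint exchange of valine with isoleucine is milder than the annotated V230M. The table lists each of these bases as homozygous, under which both would lie on 1 molecule, but it lists every site so and records no reads that carry both.

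The last comparison asked whether the genes with amino acid changing sites differed in expression between the mutant and sibling libraries. Of 643 genes, 639 were matched by name and position to 1 locus of the expression table, and 516 of these had a mean of at least 1 FPKM. Differences were taken on log2(FPKM + 1), on which genes of low level appear to differ less. There 25 of the 516 stood 2-fold or more above the sibling value, 4.84% (exact 95% interval 3.16 to 7.07), against 6.75% of all 20638 measured loci. Those lower by as much were 19, or 3.68% (2.23 to 5.69), against 8.36%. The shares move with the constant added to FPKM. With 0.1 FPKM added they were 8.33% higher and 5.04% lower, against 9.46% and 11.1% of all measured loci, and with 5 FPKM added 1.16% and 0.969%, against 2.99% and 3.86%. For genes with synonymous sites the shares were 4.27% and 4.61%. The median log2 difference, mutant minus sibling, was 0.10 for genes with amino acid changing sites, 0.07 for genes with synonymous sites and 0.00 for all measured loci. Genes without reads can hold no site, so the genes with sites are not a random draw from the table. Among measured genes, those with amino acid changing sites had median levels of 5.19 FPKM in the mutant library and 4.69 FPKM in the sibling library. All measured loci had 6.92 and 7.33 FPKM. The part of this difference in level in the shares was not tested. In whole embryos fewer cells of a type and less RNA per cell cannot be told apart.

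In the authors' deposited table, which tests 1 library against 1, 499 of the matched genes had a test of status OK. Of all 20044 loci tested there, 94 (0.469%) were called different, and of the matched genes 1 was. It was her4.4, a transcriptional repressor of the Notch pathway, which fell to 5.27 FPKM in the mutant library, against 47.6 FPKM in the sibling library, with a log2 change of -3.17 and q = 0.000409 in the authors' deposited table. Its site was V124M (Gtg/Atg) at position 21757416 of chromosome 23 with 11 reads. The her4 genes are near-identical copies, so both its reads and its site may belong to a neighbour.

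The other genes that stood far apart were not called. Higher in the mutant library was FP015791.1, at 9.55 FPKM in the mutant library and 0.23 FPKM in the sibling library with F192Y at 22 reads. So were CABZ01088508.1 at 57.7 and 11.6 FPKM and MFAP4 (7 of 13) at 20.3 and 3.82 FPKM. The complement regulator cfh was also higher, at 11.5 and 2.24 FPKM, and held 4 sites. Of the cfh sites, G861E and R862Q were also annotated in cfhl4, as G327E and R328Q. Lower were the motor protein gene MYO9B (1 of 3) at 3.49 FPKM in the mutant library and 17.7 FPKM in the sibling library, aspm, a protein of spindle poles in dividing progenitors, at 4.31 and 20 FPKM, and mical3b at 2.13 and 8.62 FPKM. The matrix gene fn1b stood at 70.8 FPKM in the mutant library and 17.7 FPKM in the sibling library, and vcana at 21.8 and 9.32 FPKM. Each pair is 1 value per library. Of the 67 measured genes in the 17 groups, 5 were higher in the mutant library by 2-fold or more and 3 lower, beside 6.75% and 8.36% of all loci. Higher were 2 of 12 in the extracellular matrix list, 1 of 5 in the muscle list, 1 of 5 in the chromatin list and 1 of 7 in the metabolic list, and lower were 2 of 3 in the Notch and neural list and 1 of 3 in the cytoskeleton list. The other 11 groups had none.

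Among sites with at least 5 reads, the limit set for both kinds of site, coverage followed expression loosely. Across 879 sites with a matched locus, Spearman's rho between coverage and FPKM was 0.35 for the mutant library and 0.30 for the sibling library. For 1437 synonymous sites it was 0.57 and 0.50. Coverage and FPKM both come from RNA reads of this study, so a positive value is built in. The limit of 5 reads also cuts off the lowest coverage. These are values across sites that share genes and libraries, and no p was computed. Values of 0 FPKM were found for 10 of the 639 loci in siblings only, for 1 in mutants only and for 1 in both groups. The last was si:dkey-256i11.3, whose site S78C nevertheless had 7 reads.

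**Figure D5:**
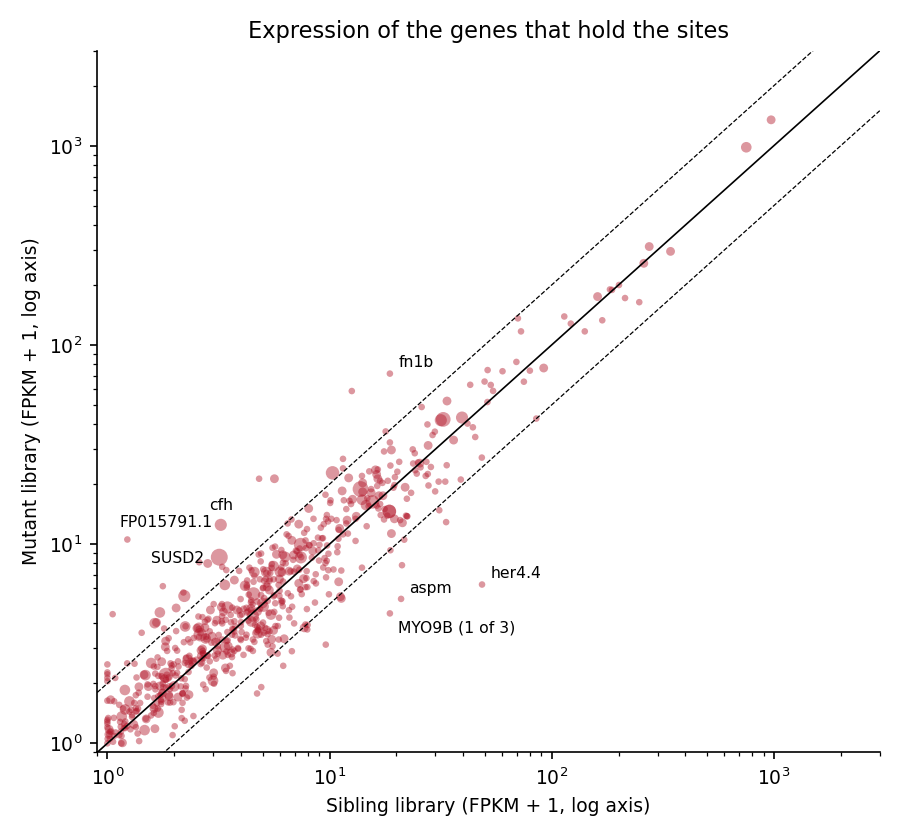
FPKM + 1 in the mutant library (vertical, log axis) against the sibling library (horizontal, log axis) for the 639 genes with amino acid changing sites and a matched locus. Each point is 1 gene, larger with more sites, the solid line marks equal values and the dashed lines 2-fold. Most genes lie between the dashed lines, and her4.4 lies farthest below them.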

How the data were processed

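Per the labels' protocols, the kit selected polyadenylated RNA and kept strand, and 50-base reads were taken from both ends. Cufflinks 2.2.1, Cuffdiff, TopHat2 2.1.1, CASAVA 1.8 and Zv9 as the build stand, without roles, in the submitters' processing notes. The authors deposited FPKM values per locus and library, with their own log2 ratio, p-value and q-value from 1 library against 1 library, per the file headers. Sequencing depth was not given. The deposited variant table, which names SnpEff 3.1k per the file headers, gives each site a score of quality and its coverage as a read count. The sources used here give no caller, filter or source library for it.

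Where gene models differed, the annotation with the longest coding length was used (133 sites had several residue numbers or changes). The listed codons were translated and gave the listed residues at all 885 sites. Expression loci were matched by gene name and position, and kept with a mean of at least 1 FPKM. BLOSUM62 came from Biopython. No test was run, and exact binomial intervals are at 95%. The classing of sites was tested on simulated rows. Python 3.11.15, pandas 2.3.3, SciPy 1.17.1 and Biopython 1.88 were used.

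The sites and lists were chosen with earlier results of these data known. Genes were named by nearness to supt16h, coverage, BLOSUM62 score, number of sites, a place among the 3 most covered sites of a group, calls in the authors' table and the 4 largest differences each way. Of these, 1 gene that this rule picks is not reported here. The other genes and examples were named after their values were seen. Gene groups were set by name prefixes, after dropping copy numbers, and 23 memberships caught wrongly were removed by hand once seen. Coverage classes, windows, joint codons and paired copies were also chosen after seeing the data. Of the 885 sites, 508 had a gene identifier in the gene name table.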

Additional observations from a re-analysis of the deposited data

How the results depend on the processing

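Of 33 alternative values, 24 stayed inside the exact 95% interval of the reported one. Another 5, of the homozygous share, could not move, since every site is listed so. With a coverage minimum of 10 and of 20 in place of 5, the median coverage was 15 and 31 reads, as the limit itself sets, and the share on chromosome 7 was 10.1% and 12.5%. With a minimum of 20, transitions were 44.6% of 112 sites, with an interval of 35.2 to 54.3 that includes the reported 49.3%. With 0.1 FPKM added in place of 1, 8.33% of genes with these sites stood 2-fold or more above the sibling value, against 9.46% of all measured loci. With 5 FPKM added 1.16% stood above and 0.969% below it, against 2.99% and 3.86%. Keeping the names taken out by hand, an alternative chosen after seeing the data, 14.6% of sites fell in a gene group. The causes were not tested. A quality minimum of 30, 1 site per gene, and leaving out sites that are synonymous in another transcript left the shares of sites and the median coverage inside their intervals. Of these only the quality minimum was run on the shares of genes, which also stayed inside. No paired analysis was possible because there was 1 library per group, and for the same reason neither library could be left out. Coverage limits each site: most had fewer than 10 reads.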

Other observations

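Some changes appeared alike in 2 genes of the same chromosome and the same coding length. Among such pairs of genes the same codon change stood in both in 4 cases, 8 sites in all. The gene uhrf1, which reads half-methylated DNA at replication forks, and FP360035.1 on chromosome 22 both carried D173E (gaT/gaG), with 41 reads and a quality of 17.1 in uhrf1 and 29 reads and a quality of 12.3 in FP360035.1. The FPKM values of uhrf1 were 12.8 in the mutant library and 21.4 in the sibling library, and those of FP360035.1 were 12.8 and 21.3. On chromosome 15, mrps22 and MRPS22 (2 of 2) both carried L199V (Ttg/Gtg), with 41 reads and a quality of 14.2 and 43 reads and a quality of 10.4. On chromosome 16, zgc:174938 and BX323793.1 shared T251R (aCa/aGa, 97 and 76 reads) and F247I (Ttt/Att, 68 and 76 reads).

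Of these 8 sites, 5 had a quality below 30, where 33 of the 885 sites did. Whether reads of the copies were exchanged was not tested. Genes with clone-based names held 33.4% of the 885 sites (exact 95% interval 30.3 to 36.7) and 20.5% of synonymous sites (18.4 to 22.7). Unplaced scaffolds held 5.20% (3.83 to 6.87) and 3.11% (2.28 to 4.15). Of amino acid changing sites with fewer than 5 reads, these held 35.7% (33.3 to 38.2) and 6.16% (5 to 7.49). The 2 shares are thus not particular to the well covered sites.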
